A study of Mus musculus with 4 samples.

Results

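A set of 10 genes of the p53 stress response was followed in mouse glomeruli, the filtering units of the kidney. They are Trp53, which encodes p53, and 9 genes known as its targets, Mdm2, Ccng1, Trp53inp1, Gdf15, Phlda3, Eda2r, Plk2, Plk3 and Btg2. They were chosen by name, with earlier results of these data known. All 10 were found among the 22809 genes of the deposited table, 1 row each. Poly(A) RNA came from glomeruli freshly isolated at 3 weeks of age, in 2 control libraries labelled WT and 2 libraries labelled as a podocyte-specific HDAC knockout, which the series' title names as loss of Hdac1 and Hdac2. Podocytes are epithelial cells whose foot processes surround the capillaries of the glomerulus. HDAC1 and HDAC2 are histone deacetylases that work in corepressor complexes. No library is labelled as treated with an agent. Each library pooled 2 mice. The study ran 2 independent experiments, which the labels do not tie to single libraries, and the driver of the podocyte deletion is not given in the sources used here. The single comparison of the design, knockout-labelled against control, addresses how gene expression in these glomerular preparations differs once podocytes have lost these enzymes.

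p53 is a transcription factor that is kept low by MDM2, the ubiquitin ligase that marks it for destruction. Under DNA damage or other stress p53 escapes MDM2 and switches on genes that halt the cell cycle, start repair or lead to death, and Mdm2 itself is among them, which closes a feedback loop. Much of this control acts on the p53 protein, so the Trp53 transcript is not a measure of p53 activity. Several targets also answer to other signals. Btg2, Plk2 and Plk3 are known as immediate early genes that growth factors and other stimuli induce within minutes, and Gdf15 is also induced through ATF4 in the integrated stress response.

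Values are TPM, read counts per base of gene, scaled so that every library has 1 common total, so levels can be compared between genes. The libraries held between 12876939 and 20943138 whole reads, and the 10 genes had between 3 and 1493 reads each in a library. Hdac1 was at 19.3 and 18.6 TPM in the 2 controls, against 22.9 and 22.5 TPM with the knockout label (replicates 1 and 2 of each). Hdac2 was at 20.2, 24.1, 23.5 and 20.9 TPM in these 4 libraries. Neither target gene had less transcript with the knockout label, so these values do not check the labels, and every direction below rests on the labels. The podocyte markers fixed as a list, Nphs1 and Synpo among them, were present in every library. Nphs1 was at 15.3 and 34.7 TPM in controls 1 and 2, against 1.48 and 8.43 TPM with the knockout label. Its groups did not overlap, while those of Synpo did. Markers of the proximal tubule, which glomeruli do not contain, were present in every library too, and their values stand beside the results.

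The stretch before the transcription start differs between the members, and it is printed for those whose promoter window held a searched motif. RefSeq promoter windows (GRCm38.p6, 250 bases before to 50 after the start) were found for 9 of the 10 members. Both strands were searched for the p53 half-site consensus, for the cyclic AMP response element TGACGTCA, for the AP-1 site TGANTCA and for the CArG box. The sequences run 5′ to 3′ on the strand of the gene, end before the start site, leave out bases that lie in annotated exons, and have the match in capitals. The first 3 hold a p53 half-site and the last 2 hold TGACGTCA.
Trp53 (chr11:69580256-69580358, plus strand): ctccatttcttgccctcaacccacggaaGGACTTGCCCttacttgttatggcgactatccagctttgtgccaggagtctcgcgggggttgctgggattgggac
Mdm2 (chr10:117710759-117711008, minus strand): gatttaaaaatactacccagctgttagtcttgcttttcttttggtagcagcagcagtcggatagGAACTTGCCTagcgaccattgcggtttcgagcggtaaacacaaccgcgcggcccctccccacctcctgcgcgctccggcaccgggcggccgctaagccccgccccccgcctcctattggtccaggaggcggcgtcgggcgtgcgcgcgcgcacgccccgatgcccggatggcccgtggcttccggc
Ccng1 (chr11:40755312-40755536, minus strand): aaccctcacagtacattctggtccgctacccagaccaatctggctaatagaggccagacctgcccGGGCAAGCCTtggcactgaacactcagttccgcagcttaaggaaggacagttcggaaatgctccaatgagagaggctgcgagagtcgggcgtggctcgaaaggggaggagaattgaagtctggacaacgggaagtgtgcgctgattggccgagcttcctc
Btg2 (chr1:134079156-134079405, minus strand): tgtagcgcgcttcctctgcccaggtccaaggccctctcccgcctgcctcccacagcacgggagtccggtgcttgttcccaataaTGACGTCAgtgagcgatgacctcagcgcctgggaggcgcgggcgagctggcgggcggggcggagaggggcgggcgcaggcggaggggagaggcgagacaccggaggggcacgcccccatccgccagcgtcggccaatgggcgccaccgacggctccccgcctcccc
Plk2 (chr13:110394794-110395043, plus strand): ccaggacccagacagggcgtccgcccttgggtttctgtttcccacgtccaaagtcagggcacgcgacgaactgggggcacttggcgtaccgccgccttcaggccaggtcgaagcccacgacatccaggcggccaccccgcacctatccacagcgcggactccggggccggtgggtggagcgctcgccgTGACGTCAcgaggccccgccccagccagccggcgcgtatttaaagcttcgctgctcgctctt
The half-site begins 75 bases before the start of Trp53, 186 before that of Mdm2 and 185 before that of Ccng1. Of all 32851 windows of the same length, 8.36% hold such a half-site. TGACGTCA begins 166 bases before the start of Btg2 and 62 before that of Plk2, and 1.79% of all windows hold it. No AP-1 site, which 7.81% of windows hold, and no CArG box, which 1.63% hold, lay in a member's window, and neither did a pair of p53 half-sites within 13 bases, which 0.0731% hold. These are matches of letters in a short window. They do not show that a factor binds, and p53 sites that lie elsewhere in these genes were not searched.

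No member passed the test of knockout-labelled against control, and the members did not move as 1 group. Gdf15, Btg2 and Plk3 were 2.78-fold to 4.62-fold higher on the log2(TPM + 1) scale, with knockout-labelled libraries well apart from the controls. Trp53 and Plk2 were higher by less, while Mdm2, Trp53inp1 and Ccng1 lay close to the controls or below them. Phlda3 had a log2 fold change of 0.63 with overlapping groups. The test was limma on log2(TPM + 1), adjusted by Benjamini-Hochberg over 18612 genes with a mean of at least 1 TPM and called below 0.05. It called 0 of the 9 members that entered it, beside 0.00537% of all genes tested, which is 1 gene. With the unadjusted p below 0.05, 4 of the 9 members were higher, and 0 were lower, beside 13.4% of all tested genes higher and 4.46% lower. Voom on whole reads recovered from the TPM called 0.0% of 18110 genes. Eda2r fell short of the minimum level and was not tested.

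Both knockout-labelled libraries were above both controls for 5 of the 9 tested members, Trp53, Gdf15, Plk2, Plk3 and Btg2, beside 36.7% of all tested genes. They were below both for 1, Ccng1, beside 14.3%. The groups overlapped for Mdm2, Trp53inp1 and Phlda3. The median log2 fold change of the 9 was 0.74, beside 0.17 for all tested genes. The members' log2 fold changes had an SD of 0.78, against 0.63 over all tested genes. Median-ratio scaling moved the median of all tested genes by 0.20 log2 units. Against the median over all genes tested, as deposited, the log2 fold change was 2.04 for Gdf15, 1.31 for Plk3, 1.31 for Btg2, 0.94 for Plk2 and 0.57 for Trp53. It was 0.47 for Phlda3, -0.0065 for Trp53inp1, -0.045 for Mdm2 and -0.38 for Ccng1 on the same footing.

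**Figure D1:**
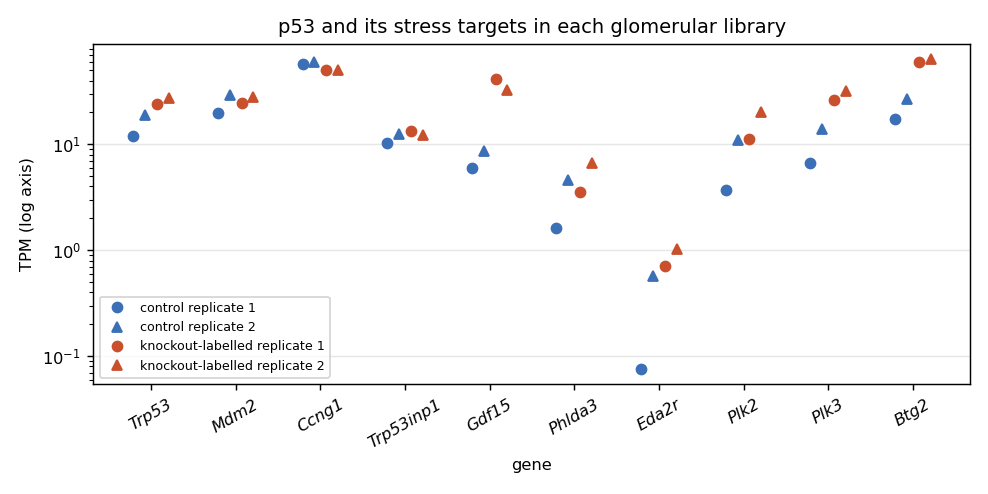
TPM of each of the 10 genes (log axis) in each library, control in blue and knockout-labelled in orange, with circles for replicate 1 and triangles for replicate 2. Gdf15, Plk3 and Btg2 show the widest gaps between the colours, and Ccng1 is the only tested gene whose orange points both lie below the blue.

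Trp53 is the head of the list, and its transcript was higher in both knockout-labelled libraries. The gene lies on chromosome 11 (69580359 to 69591873 in GRCm38, plus strand). It was at 11.9 TPM in control replicate 1 and 18.7 TPM in replicate 2, against 24.2 and 27.3 TPM in the knockout-labelled pair. The groups did not overlap, and control replicate 1 was the lowest library. Trp53 was thus 1.67-fold higher, a difference of 0.74 on the log2 scale (SE 0.26, adjusted p = 0.230 by limma). Wrap53, its head-to-head neighbour on the other strand, shares no exon bases with Trp53 and was at 9.06, 9.43, 8.60 and 10.7 TPM in the same order, so the groups overlapped there.

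Mdm2, the ligase that holds p53 down and is itself a p53 target, did not differ beyond its spread (chromosome 10, 117688875 to 117710758, minus strand). It was at 20.0 and 29.0 TPM in controls 1 and 2, against 24.4 and 28.3 TPM with the knockout label. Both knockout-labelled values lie between the 2 controls. Its log2 fold change was 0.12 (SE 0.23; limma's adjusted p = 0.834), and 45.5% of all tested genes had a lower log2 fold change. Its sign depended on the scaling and on 1 library, being -0.10 with median-ratio scaling and -0.14 without control replicate 1.

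The members that slow or time the cell cycle did not move together. Ccng1 encodes cyclin G1, which recruits a phosphatase to MDM2, and it was the most abundant member in the controls (chromosome 11, 40748552 to 40755311, minus strand). It was at 57.5 and 60.0 TPM in controls 1 and 2, against 50.4 and 50.8 TPM with the knockout label. The groups did not overlap, and each pair agreed closely, with SDs of 1.74 and 0.309 TPM (n = 2 each). Its log2 fold change was -0.21 (SE 0.15; limma's adjusted p = 0.530), and -0.44 with median-ratio scaling.

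Btg2 encodes an antiproliferative protein that promotes the removal of poly(A) tails from mRNA (chromosome 1, 134075170 to 134079120, minus strand). It was at 17.5 and 26.5 TPM in controls 1 and 2, against 60.0 and 63.3 TPM with the knockout label. The knockout-labelled pair agreed closely and lay far above both controls. Btg2 was 2.78-fold higher (1.47 in log2 units, SE 0.23; limma's adjusted p = 0.104), and 96.4% of all tested genes had a lower log2 fold change.

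Plk2 and Plk3 encode polo-like kinases that act in stress checkpoints rather than as the main drivers of mitosis. Plk2 (chromosome 13, 110395046 to 110400844, plus strand) was at 3.69 and 11.0 TPM in controls 1 and 2, against 11.3 and 20.2 TPM with the knockout label. Control replicate 2 almost met knockout-labelled replicate 1, so the groups were barely apart. For Plk2 the log2 fold change was 1.11 (SE 0.52; limma's adjusted p = 0.344), but 0.43 without control replicate 1 and 1.78 without control replicate 2. Plk3 (chromosome 4, 117128655 to 117133963, minus strand) was at 6.67 and 14.0 TPM in controls 1 and 2, against 26.5 and 31.7 TPM with the knockout label. Its groups were clearly apart, by 1.48 log2 units (SE 0.35; limma's adjusted p = 0.133). Plk3 shares 84 of its 2531 exon bases (3.32%) with Tctex1d4 on the other strand, which held 2 to 20 reads in a library against 113 to 670 for Plk3.

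Trp53inp1 encodes a nuclear protein that helps p53 start apoptosis and takes part in autophagy (chromosome 4, 11156431 to 11174379, plus strand). It was at 10.2 and 12.5 TPM in controls 1 and 2, against 13.2 and 12.3 TPM with the knockout label. The groups overlapped, and control replicate 1 was the lowest library. Its log2 fold change was 0.16 (SE 0.21; limma's adjusted p = 0.752), and -0.057 with median-ratio scaling and -0.064 with quantile normalization.

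The members that signal at the membrane or outside the cell held both the highest fold change and the 2 faintest transcripts. Gdf15 encodes a secreted stress cytokine that signals to the hindbrain to reduce feeding (chromosome 8, 70629393 to 70632456, minus strand). It was at 5.97 and 8.58 TPM in controls 1 and 2, against 41.3 and 32.7 TPM with the knockout label. Every knockout-labelled value was several times every control value. Gdf15 was 4.62-fold higher (2.21 in log2 units, SE 0.25; limma's adjusted p = 0.0928), and 99.0% of all tested genes had a lower log2 fold change. Gdf15 and Trp53inp1 were the members with a lower value in knockout-labelled replicate 2 than in replicate 1.

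Phlda3 encodes a small membrane-binding protein that competes with AKT (chromosome 1, 135766119 to 135769136, plus strand). It was at 1.63 and 4.56 TPM in controls 1 and 2, against 3.58 and 6.67 TPM with the knockout label. Replicate 2 was the higher library in each group, and the groups overlapped. Its log2 fold change was 0.63 (SE 0.48; limma's adjusted p = 0.556), from 0.093 without control replicate 1 to 1.17 without control replicate 2.

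Eda2r encodes a TNF receptor family member that binds ectodysplasin A2 and lies on the X chromosome (97333840 to 97377216, minus strand). It had 3 and 18 reads in the controls and 30 and 51 reads in the knockout-labelled libraries. In TPM these were 0.0761 (95% exact Poisson interval 0.0157 to 0.222), 0.571 (0.339 to 0.903), 0.711 (0.480 to 1.02) and 1.04 (0.771 to 1.36), where the intervals cover counting error only. Control replicate 1 stands below the other 3 libraries, whose neighbouring intervals overlap. At this depth a difference between control replicate 2 and knockout-labelled replicate 1 was not detectable.

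**Figure D2:**
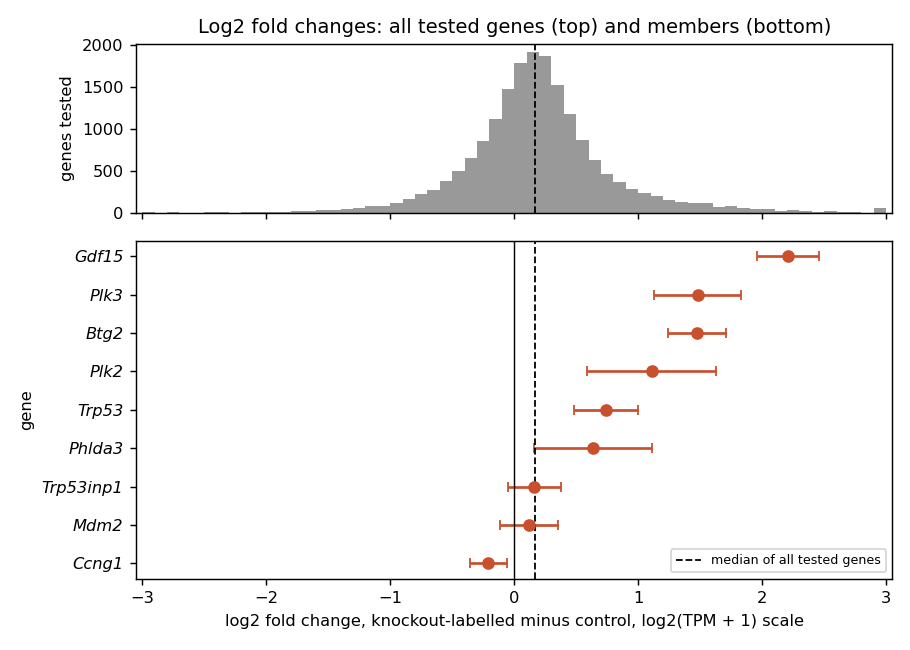
Top, number of tested genes by log2 fold change, knockout-labelled minus control, with values beyond 3 placed in the end bars; bottom, the same quantity for the 9 tested members with its SE (n = 2 each). Gdf15 at 2.21 and Plk3 and Btg2 near 1.48 sit in the right tail, while Trp53inp1 and Mdm2 sit on the dashed median of all genes at 0.17 and Ccng1 lies to its left.

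By level per length, the order of the members differed between the groups. In the controls Ccng1 led at 58.7 ± 1.74 TPM (SD, n = 2), followed by Mdm2 at 24.5 ± 6.36, Btg2 at 22.0 ± 6.39, Trp53 at 15.3 ± 4.80, Trp53inp1 at 11.4 ± 1.65 and Plk3 at 10.4 ± 5.21 TPM. Below these, Plk2 was at 7.34 ± 5.16, Gdf15 at 7.28 ± 1.85, Phlda3 at 3.09 ± 2.07 and Eda2r at 0.324 ± 0.350 TPM. From Mdm2 down to Phlda3, neighbours in this order differed by less than the larger of their SDs, with the exceptions of Btg2 to Trp53 and Gdf15 to Phlda3. In the knockout-labelled libraries Btg2 led at 61.7 ± 2.30 TPM (SD, n = 2), then Ccng1 at 50.6 ± 0.309, Gdf15 at 37.0 ± 6.03, Plk3 at 29.1 ± 3.65, Mdm2 at 26.3 ± 2.702, Trp53 at 25.7 ± 2.18, Plk2 at 15.8 ± 6.28 and Trp53inp1 at 12.8 ± 0.670 TPM. Phlda3 at 5.13 ± 2.18 and Eda2r at 0.873 ± 0.229 TPM closed the list. Plk3 and Mdm2, Mdm2 and Trp53, and Plk2 and Trp53inp1 differed there by less than the larger of their SDs. Gdf15 was number 8 in the controls and number 3 in the knockout-labelled libraries.

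The spread within the groups was part of the pattern. All 10 members were higher in control replicate 2 than in control replicate 1, as were 72.4% of all tested genes. The median difference between the controls was 0.57 log2 units over the 9 tested members and 0.28 over all tested genes. Between the knockout-labelled libraries it was 0.17 and 0.092. The gap between the controls was 1.35 log2 units for Plk2, 1.08 for Phlda3 and 0.97 for Plk3, and it was 0.060 for Ccng1.

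Whether members passed the test depended on control replicate 2. Without it, a fit in which the lone control is assumed to vary like the knockout-labelled pair, the log2 fold changes of Gdf15, Btg2, Plk3 and Trp53 were 2.44, 1.76, 1.97 and 1.04 and all 4 passed (adjusted p = 0.0133, 0.0126, 0.0156 and 0.0382 by limma), beside 8.37% of all genes called higher in that fit and 2.8% lower. With control replicate 1 alone as the control, 8 of the 9 tested members were lower there than in both knockout-labelled libraries, beside 65.0% of all tested genes. Without control replicate 1 no member passed, and the 4 log2 fold changes were 1.98, 1.19, 0.99 and 0.44. Gdf15, Btg2, Plk3, Plk2 and Trp53 stayed higher, and Ccng1 lower, in each fit with 1 library left out.

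**Figure D3:**
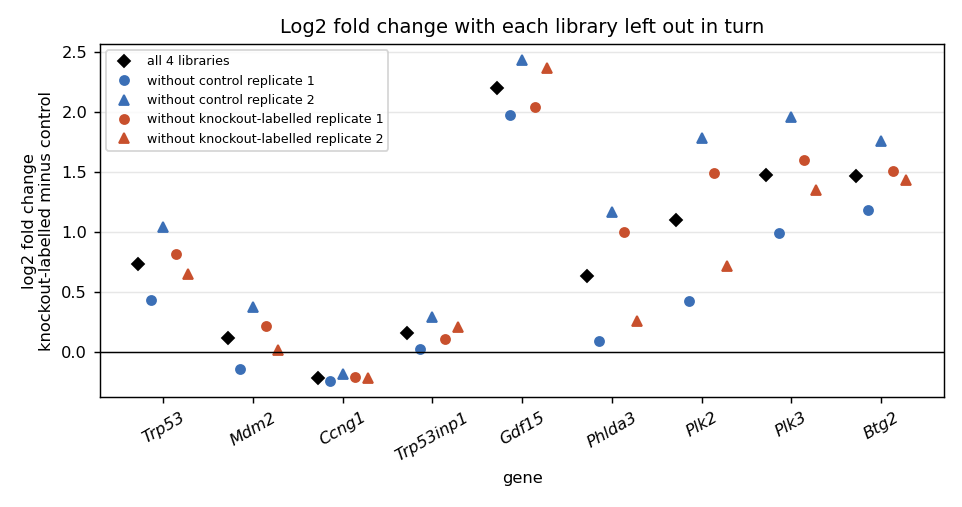
Log2 fold change of each tested member with all 4 libraries (black) and with each library left out in turn. Leaving out control replicate 2 gives the highest value for every member, and Mdm2 crosses 0 when control replicate 1 is left out.

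Other targets of p53, a list of 24 genes fixed apart from the members, had a median log2 fold change near that of all genes. A larger share of them than of all genes lay above both controls. All 24 were tested and 0 were called by limma. With an unadjusted p below 0.05, 6 were higher and 0 lower, beside 13.4% and 4.46% of all tested genes. Of the 24, 13 (54.2%) were above in both knockout-labelled libraries and 0 below, beside 36.7% and 14.3% of all tested genes. Their median log2 fold change was 0.25, or 0.078 above that of all tested genes, and 0.052 with median-ratio scaling. The 4 with the smallest p encode 2 BH3-only death proteins and 2 stress proteins. Pmaip1, which encodes NOXA, was at 11.8 and 12.5 TPM in controls 1 and 2, against 28.7 and 27.6 TPM with the knockout label (1.15 in log2 units, SE 0.18; limma's adjusted p = 0.0988). Bbc3, which encodes PUMA, was at 1.41 and 3.87 TPM and at 6.25 and 9.34 TPM (1.34, SE 0.43). The log2 fold changes were 0.67 (SE 0.18) for Gadd45a, a growth arrest gene, and 0.68 (SE 0.20) for Ddit4, an inhibitor of mTORC1 signalling. Cdkn1a, the cell cycle inhibitor p21 and the best known target, was chosen after its values were seen. It was at 5.38 and 12.1 TPM in controls 1 and 2, against 16.2 TPM in each knockout-labelled library (0.91, SE 0.37, adjusted p = 0.290 by limma).

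Genes that act on p53 or pair with it lay at the median of all genes. Of 24 fixed, 22 were in the table and 21 were tested, with 0 called by limma, 4 higher and 0 lower with an unadjusted p below 0.05, and 7 (33.3%) above in both knockout-labelled libraries and 0 below. Of all tested genes, 13.4% were higher and 4.46% lower by that p, and 36.7% lay above and 14.3% below. The median log2 fold change of the 21 regulators was 0.19, and -0.034 with median-ratio scaling. Rpl5 and Rpl11, ribosomal proteins that bind MDM2, had log2 fold changes of 0.65 (SE 0.17) and 0.60 (SE 0.17). Ribosomal protein genes have many processed pseudogenes, so these values carry an uncertainty that was not tested, as do those of Rpl36a below. Ppp1r13l, which encodes the p53 inhibitor iASPP, was at 2.78 and 3.48 TPM in controls 1 and 2, against 6.70 and 7.53 TPM with the knockout label (0.98, SE 0.26). Pml, the scaffold of nuclear bodies, had a log2 fold change of 0.64 (SE 0.24). Trp73 and Cdkn2a were not analysed here.

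Relatives of the members were compared in the same way, 10 of 13 being tested. Limma called 0 of them, and 2 were higher and 0 lower with an unadjusted p below 0.05, beside 13.4% and 4.46% of all tested genes. In TPM, 7 (70.0%) were above in both knockout-labelled libraries and 0 below, beside 36.7% and 14.3%. Btg1, the paralog of Btg2, was at 29.4 and 40.0 TPM in controls 1 and 2, against 71.6 and 64.3 TPM with the knockout label (0.96 in log2 units, SE 0.20; limma's adjusted p = 0.119). Plk1, the mitotic relative of Plk2 and Plk3, had a log2 fold change of 1.24 (SE 0.31) and is counted in the cell cycle list too. The log2 fold changes of Phlda1 and of Ccng2, the paralog of Ccng1, were 0.59 (SE 0.27) and 0.38 (SE 0.20). The median of the 10 was 0.48.

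Because Btg2, Plk2 and Plk3 are also immediate early genes, a list of other such genes was read beside them. Of 20 fixed, 19 were in the table and 16 were tested. Of these, 15 (93.8%) were above both controls in both knockout-labelled libraries and 0 below, beside 36.7% and 14.3% of all tested genes. Limma called 0, with 15 higher and 0 lower with an unadjusted p below 0.05, beside 13.4% and 4.46%. Their median log2 fold change was 1.55. Junb, an AP-1 subunit, was at 20.4 and 30.4 TPM in controls 1 and 2, against 108 and 118 TPM with the knockout label (2.14, SE 0.23, adjusted p = 0.0928 by limma). Fos was at 9.72 and 15.0 TPM and at 43.3 and 41.3 TPM (1.72, SE 0.24), and Egr1 at 11.7 and 19.0 TPM and at 47.9 and 54.1 TPM (1.70, SE 0.26). Zfp36, which speeds the decay of AU-rich mRNAs, had a log2 fold change of 1.52 (SE 0.21). Like every member but Ccng1, all 4 were lowest in control replicate 1. Of all tested genes, 72.4% were lower in control replicate 1 than in control replicate 2. The part of these genes' shared inducers in the values of Btg2, Plk2 and Plk3 was not tested.

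Genes of the integrated stress response, which can induce Gdf15, lay above the controls more often than below them. Ddit4 and Sesn2 are counted both in this list and among the other p53 targets. Of 13 fixed, 11 were tested and 0 called by limma, with 9 (81.8%) above and 2 (18.2%) below, beside 36.7% and 14.3% of all tested genes. With an unadjusted p below 0.05, 7 were higher and 1 lower, beside 13.4% and 4.46%. Their median log2 fold change was 0.53. Cebpb, a transcription factor, was at 6.96 and 8.46 TPM in controls 1 and 2, against 25.8 and 31.5 TPM with the knockout label (1.77, SE 0.21). Asns, the asparagine synthetase gene, and Psat1, of serine synthesis, had log2 fold changes of 1.20 (SE 0.29) and 0.85 (SE 0.21), while that of Shmt2, a mitochondrial enzyme of serine and glycine, was -0.99 (SE 0.26). S phase and mitosis genes, which active p53 represses through p21, were all above. All 18 were tested, 0 were called by limma and 16 were higher with an unadjusted p below 0.05, beside 13.4% of all tested genes. In TPM, 18 were above both controls in both knockout-labelled libraries and 0 below, beside 36.7% and 14.3%. Their median log2 fold change was 1.08. Rrm2, a subunit of ribonucleotide reductase, was at 10.6 and 12.1 TPM in controls 1 and 2, against 26.3 and 25.3 TPM with the knockout label, and the log2 fold changes of Top2a, Ccnb2 and Ccna2 were 1.46 (SE 0.32), 1.27 (SE 0.26) and 1.29 (SE 0.29).

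**Figure D4:**
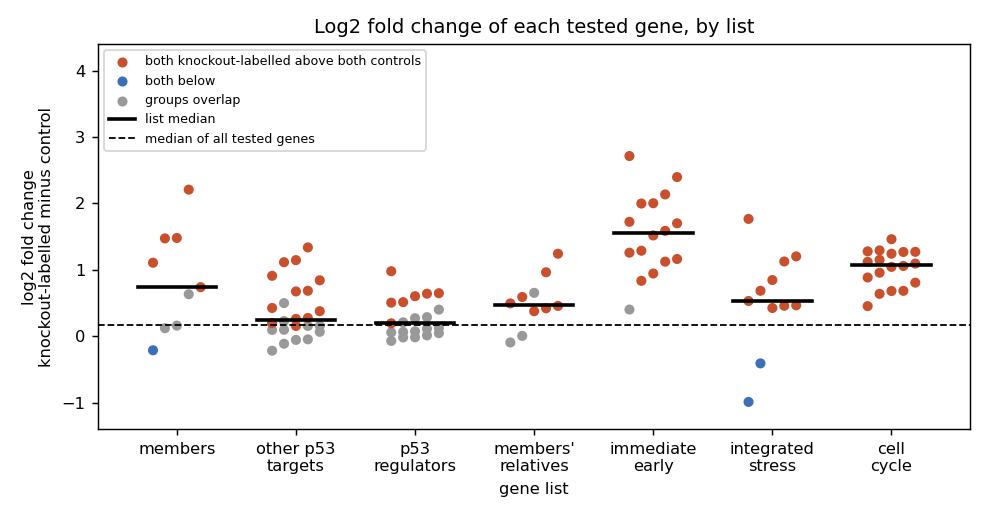
Log2 fold change, knockout-labelled minus control, of each tested gene in the members and in 6 other lists, coloured by whether the libraries of the 2 groups overlap; the bar is the list's median and the dashed line the median of all tested genes. The other p53 targets and the p53 regulators centre near the dashed line, and the immediate early and cell cycle genes lie above it.

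The genes most like Trp53 and Mdm2 were found by the distance between their log2 values over the 4 libraries, each gene centred on its own mean, among 11929 genes with a mean of at least 5 TPM. For Trp53 the nearest 3 were Rpl36a, Smad3 and Tmem184b, at root mean square distances of 0.017, 0.017 and 0.022 log2 units, and 1.47% of the genes lay within 0.1. Smad3 was at 19.0 and 29.6 TPM in controls 1 and 2, against 38.3 and 44.0 TPM with the knockout label. For Mdm2 they were E4f1, Sec14l1 and Gga3, at 0.012, 0.013 and 0.013 log2 units, and 6.46% lay within 0.1. With 4 libraries such likeness is common and is given as a description.

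Immune, parietal epithelial and proximal tubule markers moved with the groups, while the groups overlapped for some or all markers of every other list. In these bulk samples fewer cells of a type and less RNA per cell cannot be told apart. The 8 immune markers summed to 124 and 382 TPM in controls 1 and 2, against 1643 and 1798 TPM with the knockout label, with 8 of 8 above both controls. Of all tested genes, 36.7% lay above both controls in both knockout-labelled libraries and 14.3% below. The 8 parietal epithelial markers summed to 174 and 224 TPM and to 787 and 586 TPM, again 8 of 8 above. Bulk values do not show which cells these transcripts came from. The 8 proximal tubule markers summed to 7915 and 5100 TPM and to 1926 and 2392 TPM, with 8 of 8 below. The 7 podocyte markers summed to 246, 556, 109.7 and 291 TPM, 2 of 7 below. Endothelial markers (8 genes) summed to 326, 736, 266 and 561 TPM and mesangial and smooth muscle markers (8) to 175, 222, 207 and 259 TPM. The 8 markers of the collecting duct, distal tubule and loop summed to 2585, 2498, 2331 and 2643 TPM, with 1 of 8 above and 4 of 8 below. The 1 above was Umod, at 749 and 902 TPM in controls 1 and 2, against 1189 and 1475 TPM with the knockout label. Markers of red blood cells (4) summed to 40.5, 129, 19.2 and 84.3 TPM. No marker gene was at 0 in any library. The part of these shifts in the values of Gdf15, Btg2, Plk3, Plk2 and Trp53 was not tested.

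**Figure D5:**
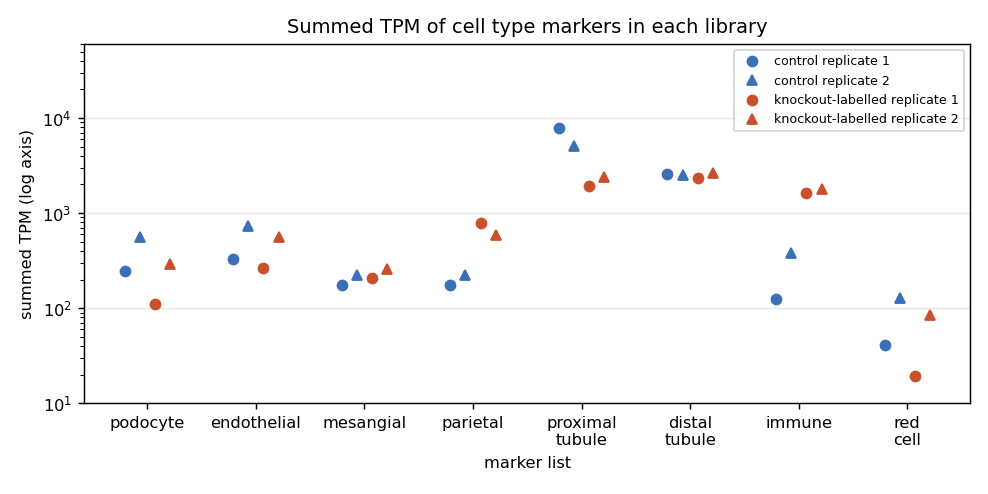
Summed TPM (log axis) of each cell type marker list in each library, control in blue and knockout-labelled in orange. Immune and parietal sums are higher and proximal tubule sums lower in both knockout-labelled libraries, while podocyte and endothelial sums are higher in replicate 2 than in replicate 1 of each group.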

How the data were processed

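Gene expression was measured by poly(A) RNA sequencing in 4 libraries. The authors deposited TPM for 22809 genes, and each of the 4 columns was assigned by its name. Tools listed in the submitters' processing notes, with no role given, are STAR 2.7.9, featureCounts 2.0.0, fastp 0.20 and DESeq2 1.30.1, and the build is GRCm38.p6. The strand setting is not given in the sources used here. TPM times the exon length in GENCODE M21 was a whole multiple of 1 unit in each library for 97.2% of genes, within a relative tolerance of 1e-06, which gave the reads. A symbol was paired with 22762 IDs.

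Groups were compared with limma 3.58.1 (R 4.3.3; eBayes with trend) on log2(TPM + 1), 2 against 2, with no covariate, which leaves 2 residual degrees of freedom. Genes below a mean of 1 TPM, 4197 in all, were left out. Fold changes are on that scale and understate low genes. Adjustment was by Benjamini-Hochberg over all genes tested, and an exact permutation test cannot go below 0.333. The test was checked on simulated data that lacked the gap seen here between the controls. That check does not show how the test performs on these libraries. Each replicate is a separate pool of mice. Python 3.11.15 and matplotlib 3.10.9 were used for tables and plots. In the podocyte list 1 marker is not reported here and was left out of the sums.

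The members and lists were chosen with earlier results of these data known, and the promoter motifs after the values were seen. Named were all members, the target genes, exon-sharing neighbours and Wrap53, up to 4 tested genes of each other list with the smallest p (not all are printed for cell type markers), and the 3 genes most like Trp53 and Mdm2. Alternatives changed the pseudocount, filter, scaling, trend, block, libraries and tool.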

Additional observations from a re-analysis of the deposited data

How the results depend on the processing

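Over the 13 alternatives, Trp53, Gdf15, Plk2, Plk3, Btg2, Phlda3 and Ccng1 kept the sign of their log2 fold change wherever they were fitted. With each library left out in turn, the log2 fold change ranged from 0.44 to 1.04 for Trp53, -0.14 to 0.38 for Mdm2, -0.24 to -0.18 for Ccng1, 0.024 to 0.30 for Trp53inp1, 1.98 to 2.44 for Gdf15, 0.093 to 1.17 for Phlda3, 0.43 to 1.78 for Plk2, 0.99 to 1.97 for Plk3 and 1.19 to 1.76 for Btg2. Mdm2 changed sign with median-ratio scaling (-0.10), quantile normalization (-0.049) and without control replicate 1 (-0.14), and Trp53inp1 with median-ratio scaling (-0.057) and quantile normalization (-0.064). The adjusted p of Gdf15 lay between 0.0133 and 0.355 and that of Btg2 between 0.0126 and 0.384. The members called higher numbered 0 to 4 with a library left out, 4 without control replicate 2, where the lone control sets the group, and 0 under every other setting. Members whose knockout-labelled values all lay above the control values numbered 5 to 8, a count added after seeing the data, with 8 only without control replicate 2, where 65.0% of all tested genes did so, beside 36.7% with all 4 libraries. Over all genes tested, 0 to 1558 were called higher and 0 to 522 lower with a library left out, the highest without control replicate 2, and 0 lower with quantile normalization, with limma without trend and with voom on recovered reads; the cause was not tested.

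With a library left out, the median log2 fold change ranged from 0.43 to 1.17 for the members, 0.23 to 0.38 for other p53 targets, 0.021 to 0.35 for p53 regulators, 0.29 to 0.61 for relatives, 1.26 to 1.83 for immediate early genes, 0.42 to 0.67 for integrated stress genes and 0.82 to 1.302 for cell cycle genes. The counts called higher reached 6, 0, 2, 14, 1 and 10 for the 6 lists other than the members, and 1 integrated stress gene was called lower, all without control replicate 2 and 0 with any other library left out. With median-ratio scaling the medians were 0.052 for other p53 targets, -0.034 for p53 regulators, 0.33 for relatives and 0.30 for integrated stress genes. With quantile normalization they were 0.042 for other p53 targets, 0.21 for relatives and 0.84 for cell cycle genes. A pseudocount of 0.1 gave 0.62 for relatives and 1.35 for cell cycle genes, a pseudocount of 5 gave 0.23 and 0.56, and voom gave 1.37 for cell cycle genes. Eda2r could be fitted only with no filter (0.52, adjusted p = 0.387 by limma). With the replicate number as a block, 0 members and 1 gene in all were called, Gdf15 having a log2 fold change of 2.21 (adjusted p = 0.0618 by limma). Same-numbered libraries deviated together with a correlation of 0.14 across genes, and with 2 pairs the labels give only a shared number. Low depth limits Eda2r and Phlda3 most, with 3 to 51 and 17 to 87 reads in a library.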
